A study of Vitis vinifera with 36 samples.

Results

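The 5 genes described here make and break down abscisic acid (ABA) in the grape berry. They were chosen by their gene identifiers, as 3 genes of 9-cis-epoxycarotenoid dioxygenase (NCED) and 2 genes of ABA 8'-hydroxylase (ABA-Hase), out of the 25280 genes of the expression table. NCED enzymes work in the plastid, where they cleave 9-cis-epoxycarotenoids such as 9-cis-violaxanthin and 9'-cis-neoxanthin into xanthoxin. This is the committed step of ABA synthesis, and xanthoxin is then turned into ABA by a short-chain dehydrogenase and an abscisic aldehyde oxidase. ABA 8'-hydroxylases are cytochrome P450 enzymes of the CYP707A family, whose product rearranges to phaseic acid, and they open the main route of ABA breakdown. In grape, a fruit whose ripening is not driven by a burst of ethylene, ABA in the berry rises around veraison, the stage when the fruit softens and colours.

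The berries came from vines of Vitis vinifera cultivar Cabernet Sauvignon, grown in a vineyard in a single season. Clusters were sprayed when berries were still hard and green, at stage E-L 33 of the Eichhorn-Lorenz scale of grapevine development, with 1 of 3 solutions. ABA1000 berries had received 1000 mg/L ABA, NAA100 berries had received 100 mg/L of the synthetic auxin 1-naphthaleneacetic acid (NAA), and Control berries had received the carrier alone. All 3 solutions held the surfactant Tween 20, and each was sprayed in 2 applications on the same day. RNA was sequenced from deseeded berries at E-L 34 (berries begin to soften), E-L 35 (berries begin to colour), E-L 36 (intermediate sugar) and E-L 38 (harvest-ripe), which gave 12 groups of 3 libraries and 36 libraries in all. Groups of 1 stage were matched by E-L stage, not by calendar date, so that the time since spraying can differ between them. The effect of a spray on a gene and a difference in the progress of the berries within a stage cannot be told apart by this design. The 3 libraries of a group came from 3 field plots, laid out in randomized blocks and each pooling berries of many vines, but no source used here says that the library numbers mark those blocks. Skin, flesh and vascular tissue were not separated, so that fewer cells of a type and less RNA per cell cannot be told apart either.

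VviNCED1 (VIT_205s0051g00670) lies on chromosome 5 from 11589343 to 11591102 on the minus strand, VviNCED2 (VIT_210s0003g03750) on chromosome 10 from 6374432 to 6376728 on the plus strand, and VviNCED3 (VIT_219s0093g00550) on chromosome 19 from 17645348 to 17647649 on the plus strand. The ABA 8'-hydroxylase genes lie on chromosome 2 from 18248487 to 18251696 on the minus strand (VIT_202s0087g00710) and on chromosome 3 from 3944372 to 3947589 on the plus strand (VIT_203s0063g00380). These positions are those of the deposited table, which was made on the CRIBI grape reference genome. They span 1760 to 3218 bases, and no other gene of the table overlapped any of the 5. The NCED numbers are those of the study and are not universal. The annotation in the table described VIT_205s0051g00670 as an NCED6-like and VIT_210s0003g03750 as an NCED1-like enzyme, and RefSeq gave the symbol NCED1, with NCED3 as a synonym, to the gene called VviNCED3 here. The annotation likened the hydroxylase of chromosome 2 to ABA 8'-hydroxylase 1 and that of chromosome 3 to ABA 8'-hydroxylase 4. Of the 5 genes, 4 could be matched to a RefSeq entry.

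Values are FPKM, the fragments mapped to a gene scaled by its length and by the total of its library. Low values of the table came in whole steps of 1 counted unit, called a read here. As the values are named FPKM and reads were paired, this unit stands for a fragment, or pair of reads. From these steps the relative depth of the libraries was taken: the deepest library held 1.12 times the reads of the shallowest. On this scale the reads behind 1 value ran from 258 to 15217 for VviNCED3, from 242 to 2588 for VviNCED2, from 9 to 449 for VviNCED1, from 65 to 1656 for the hydroxylase of chromosome 2 and from 1 to 382 for that of chromosome 3. Fewer than 100 reads stood behind 21 of 36 values of VviNCED1 and 29 of 36 values of the hydroxylase of chromosome 3, so these levels carry the largest counting error. Over all genes, the mean correlation of a library with the others of its group ran from 0.967 to 0.993, and no library repeated another. As a check of the tissue, VviMYBA1, a regulator of skin colour, was at 7.72 ± 2.89 FPKM in ABA1000 berries, 0.0762 ± 0.0662 FPKM in NAA100 berries and 2.17 ± 0.976 FPKM in Control berries at E-L 34, while the second marker of coloured skin, UFGT (VIT_216s0039g02230), was listed at or near 0 in all 36 libraries, the highest value being 0.0324 FPKM. Whether this identifier stands for the UFGT gene was not checked, so its values say nothing of the tissue here. The summed level of 17 seed genes (oleosins and storage proteins) ran from 101.7 to 2865 FPKM, although berries had been deseeded, and was above 500 FPKM in 5 libraries: ABA1000 E-L 34 replicate 3, ABA1000 E-L 35 replicate 2, NAA100 E-L 35 replicates 2 and 3 and Control E-L 36 replicate 2. A fit without these 5 libraries leaves NAA100 E-L 35 with replicate 1 alone, whose spread is then taken to be that of the other groups, and 2 libraries each for the other 3 groups. The sum of 18 genes of chlorophyll a-b binding proteins, a measure of green tissue, ran from 63.1 to 1097 FPKM. Some groups of different name were close over all genes: NAA100 E-L 38 against NAA100 E-L 36 differed in 2 of 17598 genes (0.0114%), ABA1000 E-L 35 against ABA1000 E-L 34 in 22 genes (0.125%), and NAA100 E-L 35 against Control E-L 34 in 89 genes (0.506%).

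Differences were tested with limma on log2(FPKM + 1) in 1 fit of the 12 group means, over the 17598 genes with 3 or more libraries at 1 FPKM or above, with Benjamini-Hochberg adjustment across them. All 5 genes passed this filter. A difference was called where the adjusted p was at most 0.01 and the log2 fold change at least 1 in size. Fold changes on this scale understate the change of genes near or below 1 FPKM.

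**Figure D1:**
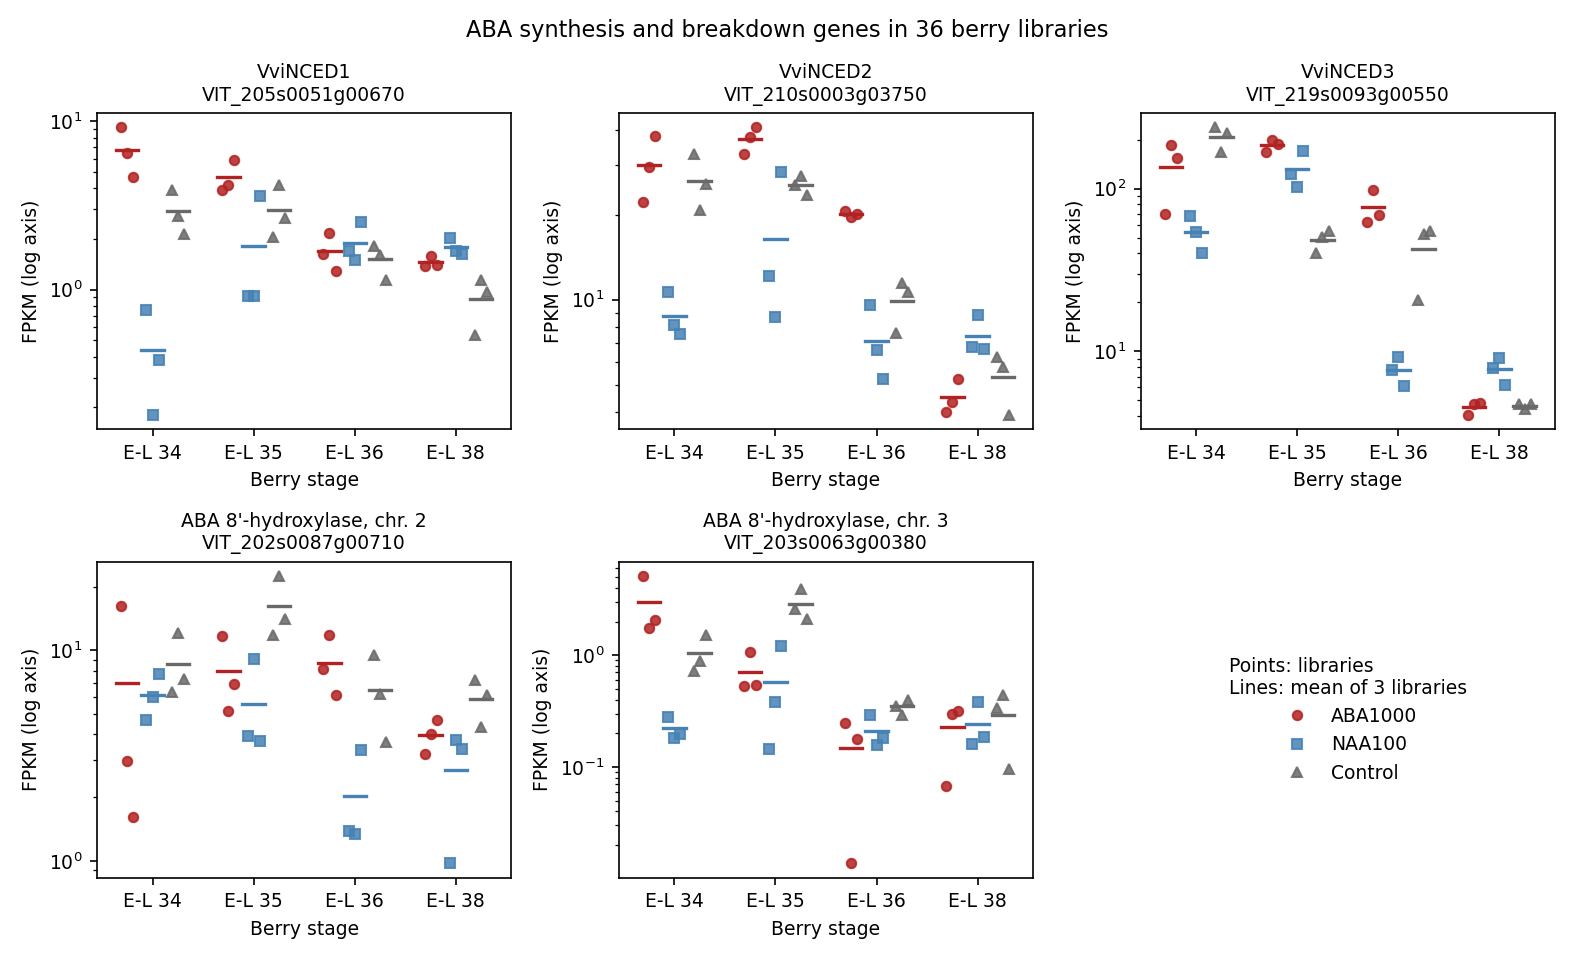
FPKM of the 5 genes in each of the 36 libraries (vertical log axis) by berry stage (horizontal axis). Each point is 1 library of ABA1000 (circles), NAA100 (squares) or Control (triangles) and each line a group mean; VviNCED3 reached 238.3 FPKM and the hydroxylase of chromosome 3 was at 0.0137 FPKM, or 1 read, in its lowest library.

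VviNCED3 was the most abundant of the 5 genes by far, with a median of 54.6 FPKM over the libraries, and its mean level was higher than that of 95.7% of all genes. At E-L 34 it was expressed at 70.2, 184.5 and 155.5 FPKM in ABA1000 berries, 67.8, 54.5 and 39.98 FPKM in NAA100 berries and 238, 168 and 220.0 FPKM in Control berries. All NAA100 libraries lay below all Control libraries, and the ABA1000 libraries overlapped the Control, with replicate 1 near the NAA100 level. VviNCED3 fell under NAA100 at this stage, to 54.1 ± 13.9 FPKM against 209 ± 36.5 FPKM in Control berries (SD, n = 3), with a log2 fold change of -1.95 ± 0.30 (SE, limma adjusted p = 1.73e-05). At E-L 35 it was expressed at 168, 199 and 188 FPKM in ABA1000 berries, 124, 103 and 172 FPKM in NAA100 berries and 40.3, 50.4 and 54.8 FPKM in Control berries. Here both treatments lay above the Control with no overlap. The log2 fold change was 1.92 ± 0.30 (SE, limma adjusted p = 0.00014) for ABA1000 and 1.42 ± 0.30 (SE, limma adjusted p = 0.00115) for NAA100, 2 comparisons that share the Control libraries. The NAA100 call was lost when only the 6 compared libraries were fitted (limma adjusted p = 0.0415). Without the 5 libraries of high seed sum, where NAA100 E-L 35 is replicate 1 alone, the log2 fold change was 1.35 and not called (limma adjusted p = 0.0302). At E-L 36 it was expressed at 62.1, 98.7 and 69.4 FPKM in ABA1000 berries, 7.67, 9.17 and 6.13 FPKM in NAA100 berries and 20.8, 52.4 and 54.7 FPKM in Control berries. The NAA100 libraries were all under 10 FPKM and below every other library of the stage, and the log2 fold change against Control was -2.23 ± 0.30 (SE, limma adjusted p = 2.1e-07). ABA1000 lay above Control at this stage without passing the threshold (log2 fold change 0.92 ± 0.30 SE, limma adjusted p = 0.0397). At E-L 38 it was expressed at 4.07, 4.74 and 4.80 FPKM in ABA1000 berries, 7.89, 9.12 and 6.24 FPKM in NAA100 berries and 4.78, 4.42 and 4.73 FPKM in Control berries. The NAA100 libraries lay above all others of the stage. No treatment was called against Control at harvest ripeness, where the interval of the difference was -0.64 to 0.58 for ABA1000 and 0.01 to 1.23 for NAA100 (95%, log2).

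The course of VviNCED3 over the stages differed between the treatments. In Control berries it was at 209 ± 36.5, 48.5 ± 7.47, 42.7 ± 18.95 and 4.64 ± 0.193 FPKM at E-L 34, 35, 36 and 38. Its first drop came between E-L 34 and E-L 35 (log2 fold change -2.08 ± 0.30 SE, limma adjusted p = 1.73e-05) and its next between E-L 36 and E-L 38 (-2.83 ± 0.30 SE, limma adjusted p = 3.68e-09), with no called change between them. In ABA1000 berries it was at 137 ± 59.4, 185 ± 15.5, 76.7 ± 19.4 and 4.54 ± 0.405 FPKM, and it fell from E-L 35 on, by a log2 fold change of -1.28 ± 0.30 (SE, limma adjusted p = 0.00155) at E-L 36 and -3.79 ± 0.30 (SE, limma adjusted p = 1.23e-11) at E-L 38, the first of which was not called without ABA1000 E-L 36 replicate 1 (limma adjusted p = 0.0124). In NAA100 berries it was at 54.1 ± 13.9, 133 ± 35.2, 7.66 ± 1.52 and 7.75 ± 1.44 FPKM. This was the one course with a called increase, at E-L 35 against E-L 34 (1.28 ± 0.30 SE, limma adjusted p = 0.00178), which was followed by a fall at E-L 36 (-3.93 ± 0.30 SE, limma adjusted p = 3.14e-12), and the step to E-L 38 was not called (95% interval -0.60 to 0.63). The increase at E-L 35 was not called without NAA100 E-L 34 replicate 3, without NAA100 E-L 35 replicate 3 or when only the 6 compared libraries were fitted (limma adjusted p of 0.0187, 0.0167 and 0.0271). Without the libraries of high seed sum, with NAA100 E-L 35 replicate 1 alone, it was 1.21 and not called (limma adjusted p = 0.0443). The highest of the 12 group means was 46.0 times the lowest. When the 12 groups were ordered by mean, 8 of 11 neighbouring pairs overlapped. The neighbours without overlap were NAA100 E-L 35 and ABA1000 E-L 36, Control E-L 36 and NAA100 E-L 38, and NAA100 E-L 36 and Control E-L 38. The first of these steps did not part all groups above it from those below. ABA1000 E-L 34, higher in the order, had a library at 70.2 FPKM, inside the range of ABA1000 E-L 36 (62.1 to 98.7 FPKM).

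VviNCED2 was the second NCED gene in level, with a median of 11.04 FPKM, and its group means spanned 8.17-fold, against 46.0-fold for VviNCED3. At E-L 34 it was expressed at 22.2, 29.5 and 37.9 FPKM in ABA1000 berries, 10.7, 8.11 and 7.58 FPKM in NAA100 berries and 32.8, 20.8 and 25.6 FPKM in Control berries. ABA1000 and Control libraries overlapped and all NAA100 libraries lay below both. VviNCED2 fell under NAA100 against Control at this stage (log2 fold change -1.48 ± 0.26 SE, limma adjusted p = 0.000121). At E-L 35 it was expressed at 32.7, 37.5 and 40.8 FPKM in ABA1000 berries, 12.1, 8.67 and 28.3 FPKM in NAA100 berries and 25.4, 27.3 and 23.5 FPKM in Control berries. The ABA1000 libraries lay above the Control without overlap (0.52 ± 0.26 SE, limma adjusted p = 0.16, not called). NAA100 replicate 3 stood apart from the other 2 NAA100 libraries and just above the Control, and the log2 fold change against Control was -0.77 ± 0.26 (SE, limma adjusted p = 0.0343), not called. Without that library it was -1.23 and called (limma adjusted p = 0.000241). At E-L 36 it was expressed at 20.7, 19.6 and 20.1 FPKM in ABA1000 berries, 9.57, 6.64 and 5.23 FPKM in NAA100 berries and 7.63, 11.4 and 10.6 FPKM in Control berries. The 3 ABA1000 libraries lay close together at about 2.03 times the Control mean, with no overlap, yet the log2 fold change of 0.97 ± 0.26 (SE, limma adjusted p = 0.0163) did not pass the threshold. Without the libraries of high seed sum it was 1.07 and called (limma adjusted p = 0.00266). At E-L 38 it was expressed at 3.98, 4.35 and 5.24 FPKM in ABA1000 berries, 6.78, 8.82 and 6.70 FPKM in NAA100 berries and 6.26, 5.78 and 3.90 FPKM in Control berries. The NAA100 libraries lay above the Control and ABA1000 libraries, which overlapped, and no treatment was called against Control. Over the stages VviNCED2 was at 29.9 ± 7.88, 36.99 ± 4.06, 20.1 ± 0.555 and 4.53 ± 0.648 FPKM in ABA1000 berries, 8.78 ± 1.64, 16.4 ± 10.5, 7.15 ± 2.21 and 7.43 ± 1.20 FPKM in NAA100 berries and 26.4 ± 6.06, 25.4 ± 1.92, 9.90 ± 2.002 and 5.32 ± 1.25 FPKM in Control berries. Its called fall came 1 step later in ABA1000 berries, between E-L 36 and E-L 38 (log2 fold change -1.94 ± 0.26 SE, limma adjusted p = 2.73e-07), than in Control berries, between E-L 35 and E-L 36 (-1.29 ± 0.26 SE, limma adjusted p = 0.000341). The test of that difference did not pass the threshold at either step: the ABA1000 effect changed by 0.45 ± 0.37 (SE, limma adjusted p = 0.552) at E-L 36 and by -1.15 ± 0.37 (SE, limma adjusted p = 0.0394) at E-L 38. In the order of the 12 means, the only neighbours free of overlap were Control E-L 35 and the next lower group, ABA1000 E-L 36. NAA100 E-L 35, lower still by mean, had a library at 28.3 FPKM, above all Control E-L 35 libraries.

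VviNCED1 was the least abundant NCED gene, with a median of 1.70 FPKM, and 7 of its 36 values were under 1 FPKM. At E-L 34 it was expressed at 9.20, 6.46 and 4.64 FPKM in ABA1000 berries, 0.755, 0.180 and 0.382 FPKM in NAA100 berries and 3.91, 2.74 and 2.13 FPKM in Control berries. The 3 groups did not overlap, with ABA1000 above Control and NAA100 below it. The reads behind these levels were 449, 326 and 227 in ABA1000 berries, 35, 9 and 19 in NAA100 berries and 191, 133 and 105 in Control berries. VviNCED1 fell under NAA100 (log2 fold change -1.44 ± 0.26 SE, limma adjusted p = 0.000149), while the ABA1000 difference, 2.31 times the Control mean, did not pass the threshold (0.97 ± 0.26 SE, limma adjusted p = 0.0201). Without the libraries of high seed sum the ABA1000 difference was 1.18 and called (limma adjusted p = 0.00295). At E-L 35 it was expressed at 3.92, 4.21 and 5.92 FPKM in ABA1000 berries, 0.915, 0.918 and 3.60 FPKM in NAA100 berries and 2.06, 4.18 and 2.67 FPKM in Control berries. NAA100 replicate 3 again lay with the Control libraries and apart from the other 2, and the NAA100 difference of -0.60 ± 0.26 (SE, limma adjusted p = 0.0984) was called only without it, at -1.02 (limma adjusted p = 0.00233). At E-L 36 it was expressed at 1.62, 2.16 and 1.29 FPKM in ABA1000 berries, 1.71, 1.49 and 2.52 FPKM in NAA100 berries and 1.81, 1.61 and 1.15 FPKM in Control berries, and the 3 groups overlapped. At E-L 38 it was expressed at 1.38, 1.58 and 1.40 FPKM in ABA1000 berries, 2.02, 1.69 and 1.63 FPKM in NAA100 berries and 0.540, 1.14 and 0.968 FPKM in Control berries. Both treatments lay above the Control at this stage without overlap, by log2 fold changes of 0.40 ± 0.26 (SE, limma adjusted p = 0.368) for ABA1000 and 0.57 ± 0.26 (SE, limma adjusted p = 0.117) for NAA100, neither of them called. Among the stage steps, VviNCED1 had 1 called change, a fall in ABA1000 berries at E-L 36 against E-L 35 (log2 fold change -1.08 ± 0.26 SE, limma adjusted p = 0.00239). It was lost under median-of-ratios scaling (-0.96), under quantile normalization (-0.89), without ABA1000 E-L 35 replicate 3 (-0.93) and without ABA1000 E-L 36 replicate 3 (-0.97). In the order of its 12 means, neighbours overlapped from ABA1000 E-L 34 down to ABA1000 E-L 38 in 10th place. ABA1000 E-L 38 did not overlap the next group, Control E-L 38, and NAA100 E-L 34 was the lowest by mean. NAA100 E-L 35, higher in the order, had libraries at 0.915 and 0.918 FPKM, inside the range of Control E-L 38 (0.540 to 1.14 FPKM).

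The ABA 8'-hydroxylase of chromosome 2 was the more abundant of the 2 hydroxylases, with a median of 6.06 FPKM. On the log2(FPKM + 1) scale it had the widest spread between libraries of a group among the 5 genes. The standard error of a difference between groups was 0.48, against 0.30 for VviNCED3 and 0.23 for the hydroxylase of chromosome 3. This scale narrows the spread of the hydroxylase of chromosome 3, which had 27 of 36 values under 1 FPKM. At E-L 34 the hydroxylase of chromosome 2 was expressed at 16.3, 2.97 and 1.62 FPKM in ABA1000 berries, 4.64, 6.01 and 7.69 FPKM in NAA100 berries and 6.32, 12.1 and 7.33 FPKM in Control berries. ABA1000 replicate 1 was at over 5 times the level of the other 2 ABA1000 libraries, and the 3 groups overlapped (95% interval of the difference from Control -1.70 to 0.27 for ABA1000 and -1.39 to 0.58 for NAA100). At E-L 35 it was expressed at 11.7, 5.17 and 6.91 FPKM in ABA1000 berries, 3.92, 9.12 and 3.70 FPKM in NAA100 berries and 11.9, 22.6 and 14.2 FPKM in Control berries. Both treatments lay below the Control with no overlap. The log2 fold change was -0.96 ± 0.48 (SE, limma adjusted p = 0.152) for ABA1000 and -1.43 ± 0.48 (SE, limma adjusted p = 0.0295) for NAA100, and neither was called. At E-L 36 it was expressed at 8.17, 11.8 and 6.13 FPKM in ABA1000 berries, 1.39, 1.34 and 3.36 FPKM in NAA100 berries and 9.53, 6.21 and 3.66 FPKM in Control berries. NAA100 libraries lay below all others of this stage. The difference was called against ABA1000 (log2 fold change -1.70 ± 0.48 SE, limma adjusted p = 0.00244) and not against Control (-1.29 ± 0.48 SE, limma adjusted p = 0.0195). The call against ABA1000 was lost without ABA1000 E-L 36 replicate 2, NAA100 E-L 36 replicate 1 or NAA100 E-L 36 replicate 2 (limma adjusted p of 0.0169, 0.0126 and 0.0134), and the difference from Control was called (limma adjusted p = 0.00338) when ABA1000 E-L 34 replicate 1 and NAA100 E-L 35 replicate 3 were both left out of the fit. At E-L 38 it was expressed at 3.22, 4.001 and 4.67 FPKM in ABA1000 berries, 0.971, 3.75 and 3.41 FPKM in NAA100 berries and 7.24, 4.30 and 6.11 FPKM in Control berries. The NAA100 libraries lay below the Control and the ABA1000 libraries overlapped both, with no call (95% interval -1.95 to 0.01 for NAA100 and -1.44 to 0.52 for ABA1000 against Control). No stage step of this gene was called in any treatment. Its means were 8.58 ± 3.08, 16.2 ± 5.64, 6.47 ± 2.94 and 5.88 ± 1.48 FPKM in Control berries at E-L 34, 35, 36 and 38. The Control E-L 35 group, the highest of the 12, barely missed overlap with the next, ABA1000 E-L 36 (lowest library 11.86 FPKM against a highest of 11.83 FPKM). It overlapped Control E-L 34 and ABA1000 E-L 34, whose highest libraries were at 12.1 and 16.3 FPKM. The other 10 neighbouring pairs in the order of means overlapped.

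The ABA 8'-hydroxylase of chromosome 3 was near the lower limit of the data, with 27 of 36 values under 1 FPKM. It was above 1 FPKM in all 3 libraries of only 2 groups, ABA1000 E-L 34 and Control E-L 35. At E-L 34 it was expressed at 5.12, 1.76 and 2.07 FPKM in ABA1000 berries, 0.282, 0.184 and 0.197 FPKM in NAA100 berries and 0.723, 0.888 and 1.51 FPKM in Control berries, from 382, 136 and 155 reads in ABA1000 berries, 20, 14 and 15 reads in NAA100 berries and 54, 66 and 114 reads in Control berries. The 3 groups did not overlap. The log2 fold change against Control was 0.89 ± 0.23 (SE, limma adjusted p = 0.0162) for ABA1000 and -0.72 ± 0.23 (SE, limma adjusted p = 0.0182) for NAA100, and neither passed the threshold. ABA1000 was called without its replicate 2 (1.11, limma adjusted p = 0.00868) and without the libraries of high seed sum (1.03). NAA100 was called on TPM, values rescaled to the same higher total in every library (-1.04, limma adjusted p = 0.00932). As library totals were 489454 to 596970 FPKM, TPM raised all values while the pseudocount stayed at 1. At E-L 35 it was expressed at 0.526, 1.06 and 0.538 FPKM in ABA1000 berries, 0.146, 0.378 and 1.22 FPKM in NAA100 berries and 2.58, 3.91 and 2.09 FPKM in Control berries, from 39, 79 and 40 reads in ABA1000 berries, 11, 29 and 90 reads in NAA100 berries and 195, 295 and 160 reads in Control berries. Both treatments lay below the Control with no overlap and both were called, at log2 fold changes of -1.16 ± 0.23 (SE, limma adjusted p = 0.00106) for ABA1000 and -1.32 ± 0.23 (SE, limma adjusted p = 0.000191) for NAA100. The ABA1000 call was lost with a pseudocount of 0.1 (limma adjusted p = 0.0119), when only the 6 compared libraries were fitted (limma adjusted p = 0.0296) and without Control E-L 35 replicate 2 (log2 fold change -0.97), and the NAA100 call when only the 6 compared libraries were fitted (limma adjusted p = 0.0617). At E-L 36 it was expressed at 0.248, 0.0137 and 0.179 FPKM in ABA1000 berries, 0.293, 0.158 and 0.181 FPKM in NAA100 berries and 0.354, 0.290 and 0.401 FPKM in Control berries, and at E-L 38 at 0.0674, 0.299 and 0.319 FPKM in ABA1000 berries, 0.160, 0.383 and 0.184 FPKM in NAA100 berries and 0.339, 0.440 and 0.0963 FPKM in Control berries. At E-L 36 the ABA1000 libraries lay below the Control and the NAA100 libraries overlapped both, at E-L 38 all groups overlapped, and no treatment was called at either stage. The peak of this gene came at a different stage in 2 of the treatments: in ABA1000 berries it was at 2.98 ± 1.85, 0.708 ± 0.306, 0.147 ± 0.120 and 0.228 ± 0.140 FPKM at E-L 34, 35, 36 and 38, and in Control berries at 1.04 ± 0.415, 2.86 ± 0.944, 0.349 ± 0.0555 and 0.292 ± 0.177 FPKM. In NAA100 berries no step was called, with 0.221 ± 0.0534, 0.580 ± 0.563, 0.211 ± 0.0720 and 0.243 ± 0.123 FPKM. It fell at E-L 35 against E-L 34 in ABA1000 berries (log2 fold change -1.14 ± 0.23 SE, limma adjusted p = 0.00894) and at E-L 36 against E-L 35 in Control berries (-1.49 ± 0.23 SE, limma adjusted p = 1.27e-05). The ABA1000 step was lost without ABA1000 E-L 34 replicate 1 (-0.78), and under 10 of the other settings tried. Besides the gap below the 2 highest groups, all neighbours in the order of means overlapped.

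Over the 4 stages, ABA1000 against Control gave 2 calls among 20 combinations of gene and stage. None of 5 genes was called at E-L 34, where 0.688% of all genes tested were called. At E-L 35, VviNCED3 rose and the hydroxylase of chromosome 3 fell, 2 of 5 genes against 1.45% of all genes. None of 5 genes was called at E-L 36 and at E-L 38, where 0.665% and 0.648% of all genes were called. The median log2 fold change of the 5 genes was 0.16, 0.52, 0.42 and -0.07 at the 4 stages, against -0.08, -0.08, -0.07 and 0.03 over all genes tested. Without the libraries of high seed sum, the log2 fold change of VviNCED1 at E-L 34 was 1.18 (0.97 with all libraries). That of the hydroxylase of chromosome 3 at E-L 34 was 1.03 (0.89 with all libraries), and that of VviNCED2 at E-L 36 was 1.07 (0.97 with all libraries).

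NAA100 against Control gave 6 calls among 20 combinations, 1 higher and 5 lower. At E-L 34 the 3 NCED genes fell and the hydroxylases were not called, which made 3 of 5 genes against 3.79% of all genes. At E-L 35, VviNCED3 rose and the hydroxylase of chromosome 3 fell, 2 of 5 genes against 2.44% of all genes. At E-L 36, 1 of 5 genes was called, VviNCED3, which is a share near the background of 19.9%. At E-L 38 none of 5 genes was called, where the background was 3.42%. The median log2 fold change of the 5 genes was -1.44, -0.77, -0.44 and 0.43 at the 4 stages, against 0.08, 0.02, 0.09 and -0.06 over all genes. Without the 2 libraries that stood apart in several of the genes (ABA1000 E-L 34 replicate 1 and NAA100 E-L 35 replicate 3), NAA100 against Control gave 9 calls, with VviNCED1 and VviNCED2 at E-L 35 and the hydroxylase of chromosome 2 at E-L 36 added. Over all 17598 genes tested, the calls of the 4 stages rose as well under this setting, from 5195 to 5501.

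Set directly against each other, the sprays gave 9 calls among 20 combinations, all lower in NAA100 than in ABA1000 berries. The median log2 fold change of the 5 genes was -1.61, -0.50, -1.41 and 0.18 at the 4 stages, against 0.17, 0.09, 0.15 and -0.10 over all genes. At E-L 34 these were 4 of 5 genes against 8.75% of all genes: VviNCED1 at 0.439 ± 0.292 FPKM in NAA100 berries against 6.77 ± 2.29 FPKM in ABA1000 berries (log2 fold change -2.41 ± 0.26 SE, limma adjusted p = 4.35e-08), VviNCED2 (-1.64 ± 0.26 SE, limma adjusted p = 1.3e-05), VviNCED3 (-1.24 ± 0.30 SE, limma adjusted p = 0.00115) and the hydroxylase of chromosome 3 (-1.61 ± 0.23 SE, limma adjusted p = 2.46e-06). The call of VviNCED3 was lost without ABA1000 E-L 34 replicate 2, without NAA100 E-L 34 replicate 3, without the libraries of high seed sum and when only the 6 compared libraries were fitted (limma adjusted p of 0.015, 0.0126, 0.0101 and 0.0398). At E-L 35, VviNCED1 (-1.13 ± 0.26 SE, limma adjusted p = 0.00414) and VviNCED2 (-1.29 ± 0.26 SE, limma adjusted p = 0.00161) were lower, 2 of 5 genes against 2.15% of all genes, and both calls were lost when only the 6 compared libraries were fitted and without either of the first 2 NAA100 replicates of that stage, that of VviNCED1 also without ABA1000 E-L 35 replicate 2 or 3. VviNCED3, which had risen over the Control under both sprays at that stage, differed between them by -0.50 (95% interval -1.11 to 0.11). At E-L 36, VviNCED2 (-1.41 ± 0.26 SE, limma adjusted p = 2.96e-05), VviNCED3 (-3.15 ± 0.30 SE, limma adjusted p = 2.81e-10) and the hydroxylase of chromosome 2 were lower, 3 of 5 genes against 24.7% of all genes. VviNCED3 was here at 7.66 ± 1.52 FPKM in NAA100 berries and 76.7 ± 19.4 FPKM in ABA1000 berries, a 10.02-fold difference of the means. At E-L 38 none of 5 genes was called, where 2.25% of all genes were.

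**Figure D2:**
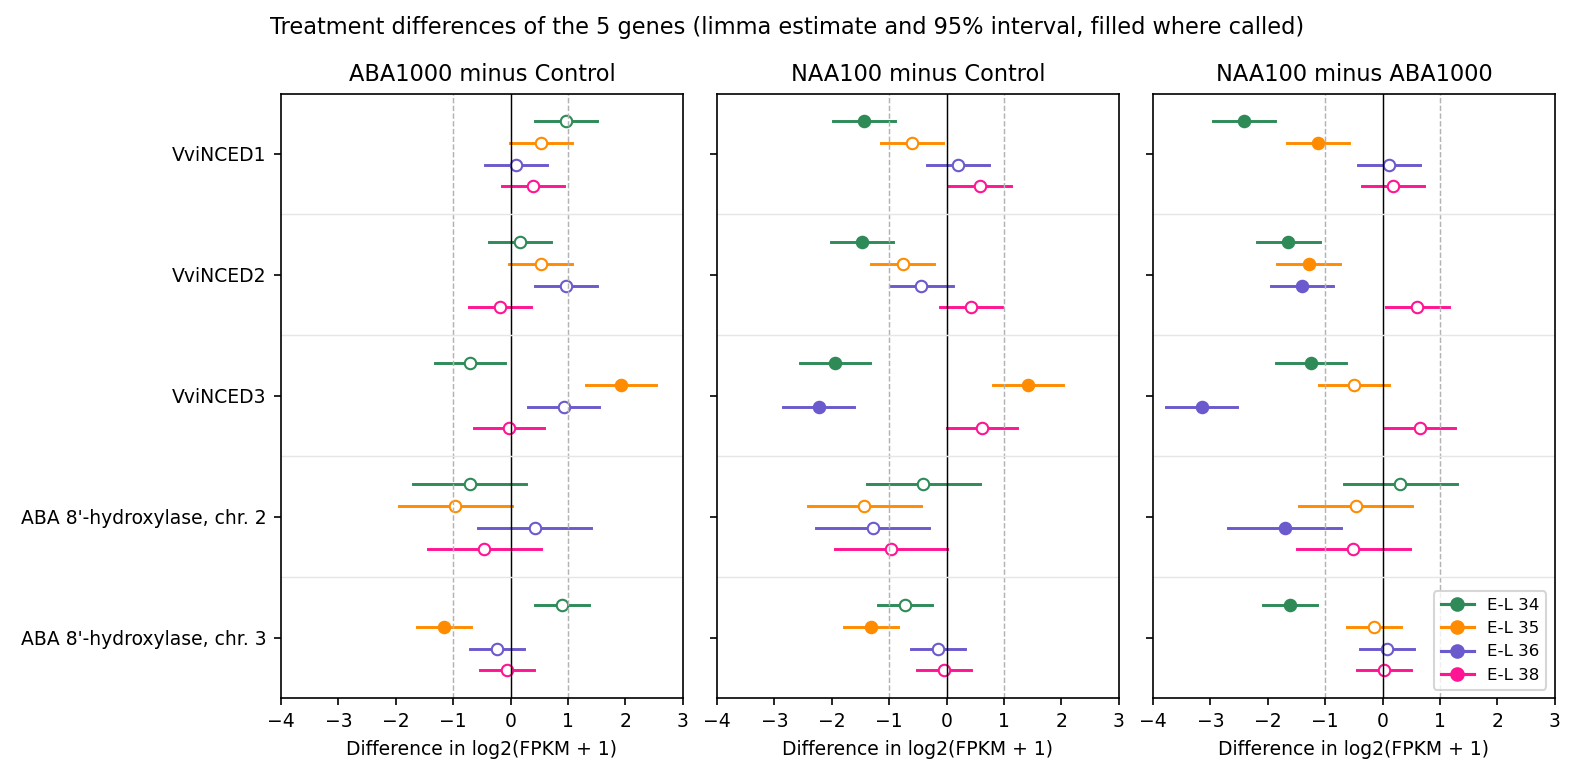
Differences of the 5 genes between treatments at each stage, in log2(FPKM + 1) (horizontal axis), as limma estimates (points) with 95% intervals (lines). Filled points passed the threshold (adjusted p at most 0.01 and a difference beyond the dashed lines at 1 and -1); the estimates for VviNCED3 under NAA100 against Control were below -1 at E-L 34 and 36 and above 1 at E-L 35.

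Among the steps from 1 stage to the next, 11 of 45 combinations of gene, treatment and step were called, 1 higher and 10 lower. In ABA1000 berries, 1 of 5 genes was called at E-L 35 against E-L 34, where 0.125% of all genes were, 2 of 5 at E-L 36 against E-L 35 (3.65% of all genes) and 2 of 5 at E-L 38 against E-L 36 (19.3%). In NAA100 berries, 1 of 5 genes was called at E-L 35 against E-L 34 (3.3%), 1 of 5 at E-L 36 against E-L 35 (27.6%), and none of 5 at E-L 38 against E-L 36, where 0.0114% of all genes were called. In Control berries, 1 of 5 genes was called at E-L 35 against E-L 34 (2.7%), 2 of 5 at E-L 36 against E-L 35 (4.66%) and 1 of 5 at E-L 38 against E-L 36 (17.2%). In the last step of ABA1000 and Control berries and in the middle step of NAA100 berries, between 17.2% and 27.6% of all genes were called, so that the background alone amounts to about 1 gene of 5 there. The genes called in these steps were VviNCED2 and VviNCED3 in ABA1000 berries and VviNCED3 in NAA100 and Control berries, all lower at the later stage.

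Whether the effect of a spray changed between 2 stages was tested as an interaction, the difference from Control at a stage minus that at the stage before. Of 30 such combinations 6 were called, 4 of them for VviNCED3. For ABA1000, 2 of 5 genes were called between E-L 34 and E-L 35 (0.955% of all genes): the effect on VviNCED3 changed by 2.62 ± 0.42 (SE, limma adjusted p = 0.000689) and that on the hydroxylase of chromosome 3 by -2.05 ± 0.33 (SE, limma adjusted p = 0.000604), in opposite directions. Both calls were lost when only the 12 compared libraries were fitted (limma adjusted p = 0.0379 for VviNCED3 and limma adjusted p = 0.0762 for the hydroxylase). None of 5 genes was called between E-L 35 and E-L 36 (0.676%) or between E-L 36 and E-L 38 (1.39%). For NAA100, 1 of 5 genes was called between E-L 34 and E-L 35 (2.48%), 2 of 5 between E-L 35 and E-L 36 (22.9%) and 1 of 5 between E-L 36 and E-L 38 (19.5%). VviNCED3 was called each time, with changes of 3.36, -3.65 and 2.85, as the estimate of the NAA100 effect changed sign at every step, the last time to 0.62, which was not called against Control. The hydroxylase of chromosome 3 was the other gene called between E-L 35 and E-L 36 (1.16 ± 0.33 SE, limma adjusted p = 0.00317). This call was lost with a pseudocount of 0.1 (limma adjusted p = 0.03), without Control E-L 35 replicate 2 (0.97, limma adjusted p = 0.0149) and without NAA100 E-L 35 replicate 1 (0.96, limma adjusted p = 0.0151).

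As groups were matched by stage name, 3 pairs of groups of different stage were added after the values had been seen. NAA100 berries at E-L 36 were set against Control berries at E-L 38, and none of 5 genes was called, where 3.67% of all genes were. VviNCED3 was at 7.66 ± 1.52 FPKM in NAA100 E-L 36 berries and 4.64 ± 0.193 FPKM in Control E-L 38 berries (log2 fold change 0.60 ± 0.30 SE, limma adjusted p = 0.16), and the hydroxylase of chromosome 2 at 2.03 ± 1.15 FPKM and 5.88 ± 1.48 FPKM in the same order (-1.22 ± 0.48 SE, limma adjusted p = 0.0688). NAA100 berries at E-L 35 were set against Control berries at E-L 34, with none of 5 genes called, against 0.506% of all genes. VviNCED3 was at 133 ± 35.2 FPKM in NAA100 E-L 35 berries and 209 ± 36.5 FPKM in Control E-L 34 berries (-0.66 ± 0.30 SE, limma adjusted p = 0.2). ABA1000 berries at E-L 35 were set against Control berries at E-L 34, again with none of 5 genes called, where 3.28% of all genes were. VviNCED3 was at 185 ± 15.5 FPKM in ABA1000 E-L 35 berries and 209 ± 36.5 FPKM in Control E-L 34 berries (-0.16 ± 0.30 SE, limma adjusted p = 0.721). The 95% intervals of VviNCED3 in these pairs were -0.01 to 1.22, -1.28 to -0.05 and -0.77 to 0.45 on the log2 scale.

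The summed FPKM of the 3 NCED genes and of the 2 hydroxylases are given as a description, with no test. At E-L 34 the NCED sum was 173 ± 63.2 FPKM in ABA1000 berries, 63.3 ± 15.6 FPKM in NAA100 berries and 238 ± 42.6 FPKM in Control berries. At E-L 35 it was 227 ± 19.2 FPKM in ABA1000 berries, 151 ± 47.1 FPKM in NAA100 berries and 76.8 ± 7.94 FPKM in Control berries, and at E-L 36 it was 98.5 ± 19.3, 16.7 ± 2.59 and 54.1 ± 20.6 FPKM in the same order. The sum was lowest in NAA100 berries at E-L 34 and 36 and lowest in Control berries at E-L 35. At E-L 38 it was 10.5 ± 1.01 FPKM in ABA1000 berries, 16.96 ± 2.54 FPKM in NAA100 berries and 10.8 ± 1.08 FPKM in Control berries. VviNCED3 made up most of the sum up to E-L 36 in ABA1000 and Control berries, with group means from 62.9% to 87.7%, and less of it at E-L 38, with 43.2 ± 1.24% in ABA1000 berries, 45.5 ± 2.36% in NAA100 berries and 43.2 ± 5.40% in Control berries. In NAA100 berries its share was 88.8 ± 3.88% at E-L 35 and already 45.9 ± 6.43% at E-L 36, with no overlap between these groups. The rest of the sum was mainly VviNCED2, which was at 48.6 ± 7.04% in Control berries at E-L 38, and the VviNCED1 share ran from 0.288% to 18.1% over the libraries.

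The hydroxylase sum peaked at E-L 35 in Control berries, at 9.62 ± 3.04, 19.1 ± 6.50, 6.82 ± 2.92 and 6.17 ± 1.42 FPKM at E-L 34, 35, 36 and 38. It was 9.96 ± 9.96, 8.64 ± 3.18, 8.86 ± 2.79 and 4.19 ± 0.859 FPKM in ABA1000 berries and 6.34 ± 1.49, 6.16 ± 2.92, 2.24 ± 1.13 and 2.96 ± 1.60 FPKM in NAA100 berries at these stages. Within each library, the NCED sum over the hydroxylase sum was 16.7, 38.6 and 31.5 in ABA1000 berries, 33.6, 11.9 and 41.4 in NAA100 berries and 4.69, 3.09 and 4.99 in Control berries at E-L 35, with both treatments above the Control and no overlap. At E-L 34 it was 4.74, 46.6 and 53.6 in ABA1000 berries, 16.1, 10.1 and 6.08 in NAA100 berries and 39.1, 14.8 and 28.03 in Control berries, and the groups overlapped. At E-L 36 it was 10.02, 10.2 and 14.4 in ABA1000 berries, 11.3, 11.5 and 3.92 in NAA100 berries and 3.06, 10.1 and 16.4 in Control berries, with overlap. At E-L 38 it was 2.87, 2.48 and 2.29 in ABA1000 berries, 14.8, 4.75 and 4.05 in NAA100 berries and 1.53, 2.39 and 1.55 in Control berries, and the NAA100 libraries lay above the rest. These are ratios of transcript levels, and neither enzyme activity nor ABA was analysed here. The hydroxylase sum holds the 2 chosen genes only. Another gene annotated as ABA 8'-hydroxylase, VIT_218s0076g00340, had a mean of 2.04 FPKM and was above 0 in all 36 libraries. All these ratios would be lower with it in the sum.

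**Figure D3:**
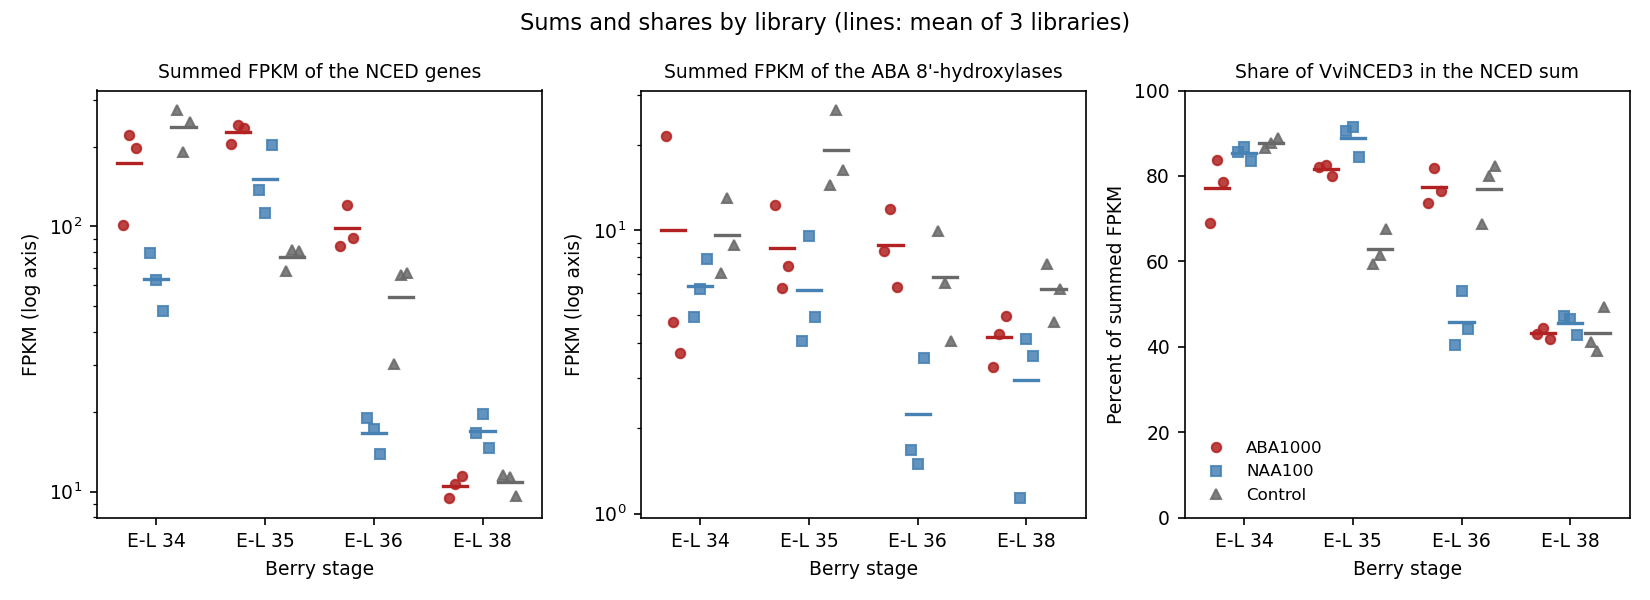
Summed FPKM of the 3 NCED genes (left, log axis), of the 2 ABA 8'-hydroxylases (middle, log axis) and share of VviNCED3 in the NCED sum (right, percent), by berry stage; points are libraries of ABA1000, NAA100 and Control and lines are group means. The VviNCED3 share was between 40.5% and 53.0% in NAA100 libraries at E-L 36 and at least 68.8% in all ABA1000 and Control libraries of that stage.

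Across the 12 group means of log2(FPKM + 1), VviNCED2 and VviNCED3 were the pair most alike (Pearson r = 0.89, Spearman rho = 0.89), and VviNCED1 and the hydroxylase of chromosome 2 the pair least alike (r = 0.17, rho = 0.16). The groups share treatments and stages, and these values are descriptions over 12 points. Within groups, over the deviations of the 36 libraries from their group means, the hydroxylase of chromosome 2 ran against VviNCED3 (r = -0.62) and VviNCED2 (r = -0.51), while VviNCED2 and VviNCED3 ran together (r = 0.62). Over the 12 group means, r of the hydroxylase of chromosome 2 was positive, 0.56 with VviNCED3 and 0.61 with VviNCED2. Its r with VviNCED1 within groups was 0.23. For the hydroxylase of chromosome 3, r within groups was 0.46 with VviNCED1, 0.27 with VviNCED2 and -0.22 with VviNCED3. For the 2 hydroxylases r within groups was 0.34. Without ABA1000 E-L 34 replicate 1, over 35 libraries, r was -0.41 between the hydroxylase of chromosome 2 and VviNCED3, -0.45 between it and VviNCED2, 0.58 between VviNCED2 and VviNCED3 and -0.09 between the 2 hydroxylases, so that the last value rested on that library. The hydroxylase of chromosome 3 had r of 0.345 with VviNCED1, 0.58 with VviNCED2 and 0.17 with VviNCED3 over these 35 libraries. In ABA1000 E-L 34 replicate 1, VviNCED3 was the lowest and both hydroxylases were the highest of their group.

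For each gene, the 3 genes with the most similar course over the 12 group means were looked up by Pearson r. The course of VviNCED3 was a common one: 993 of 17598 genes (5.64%) had r above 0.9 with it, and 1507 had r below -0.9. The highest were VIT_215s0048g02870, annotated as a homeobox-leucine zipper protein (r = 0.98), and the unnamed genes VIT_214s0006g02880 (r = 0.98) and VIT_213s0101g00520 (r = 0.98). VviNCED2 had 147 genes above 0.9, led by VIT_214s0060g00790, annotated as a galactinol synthase (r = 0.97), VIT_218s0122g01340, annotated as a BTB/POZ domain protein (r = 0.97), and VIT_219s0090g00510 (r = 0.97). VviNCED1 had 6 genes above 0.9, the hydroxylase of chromosome 2 had 5 and that of chromosome 3 had 10. The nearest to VviNCED1 were VIT_200s2377g00010 (r = 0.94), VIT_218s0001g08850, annotated as a calcium-transporting ATPase (r = 0.92), and VIT_203s0063g00580, annotated as a chromatin remodelling protein (r = 0.91). The nearest to the hydroxylase of chromosome 2 were VIT_204s0008g06830, annotated as a folate-biopterin transporter (r = 0.92), and VIT_207s0005g00890 and VIT_207s0005g00880, annotated as a polygalacturonase and a fumarate hydratase (both r = 0.91). The nearest to that of chromosome 3 were VIT_214s0060g01330, annotated as a dihydrolipoyl dehydrogenase (r = 0.95), VIT_212s0059g00990, annotated as a cellulose synthase-like protein (r = 0.95), and VIT_219s0014g03760 (r = 0.93).

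Other genes with an ABA pathway name in at least 1 annotation source of the table were listed, 34 in all. Some were described otherwise in another source. Among those named zeaxanthin epoxidase these were proton ATPase subunits, 6-hydroxynicotinate monooxygenases and urate hydroxylases, and among the aldehyde oxidases benzaldehyde dehydrogenases. No listed gene was classed as a xanthoxin dehydrogenase, so the list is not the whole pathway. The 34 genes were 11 annotated as zeaxanthin epoxidase (ZEP), 1 as violaxanthin de-epoxidase, 3 as carotenoid cleavage dioxygenase 4 (CCD4) within the NCED orthology group, 5 as abscisic aldehyde oxidase, 7 as molybdenum cofactor sulfurase, 6 as ABA 8'-hydroxylase and 1 as abscisate beta-glucosyltransferase, and 24 of them passed the filter on low values. Of 6 further genes annotated as ABA 8'-hydroxylase, 1 passed the filter, VIT_218s0076g00340, with a mean of 2.04 FPKM and no called change, and the other 5 had means below 0.1 FPKM. The abscisate beta-glucosyltransferase VIT_203s0063g00050, which stores ABA as a glucose ester, had a mean of 32.7 FPKM and was not called against Control under either spray. Against Control, ABA1000 gave no call among the 24 genes at E-L 34, 35 and 38, where 0.688%, 1.45% and 0.648% of all genes were called, and 1 lower call at E-L 36 (4.17% of the list against 0.665% of all genes). NAA100 gave 2 higher calls at E-L 34 (8.33% of the list against 3.79% of all genes), 1 higher at E-L 35 (4.17% against 2.44%), 2 higher and 1 lower at E-L 36 (12.5% against 19.9%) and 1 higher and 1 lower at E-L 38 (8.33% against 3.42%). NAA100 against ABA1000 gave 2 higher calls at E-L 34 (8.33% against 8.75% of all genes), 1 higher at E-L 35 (4.17% against 2.15%), 3 higher and 3 lower at E-L 36 (25.0% against 24.7%) and none at E-L 38, where 2.25% of all genes were called.

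Of the 9 calls against Control, 6 were of 2 genes annotated as probable CCD4, enzymes that cleave carotenoids to norisoprenoid aroma compounds. They lie on chromosome 2 at 309 kb and 337 kb from the hydroxylase of that chromosome. VIT_202s0087g00910 was at 1.05, 0.644 and 0.816 FPKM in ABA1000 berries, 38.1, 32.7 and 37.4 FPKM in NAA100 berries and 1.88, 3.48 and 1.26 FPKM in Control berries at E-L 34, and at 0.254, 0.370 and 0.117 FPKM, 109.8, 157 and 109 FPKM and 6.33, 4.93 and 4.92 FPKM in the same order at E-L 36. NAA100 libraries lay above and ABA1000 libraries below the Control at both stages. Its levels at E-L 35 were 0.498, 0.382 and 0.248 FPKM in ABA1000 berries, 44.9, 37.1 and 4.72 FPKM in NAA100 berries and 2.40, 1.43 and 1.09 FPKM in Control berries, with NAA100 replicate 3 far below the other 2 of its group. It rose under NAA100 at E-L 34 (log2 fold change 3.59 ± 0.42 SE, limma adjusted p = 3.64e-07), at E-L 35 (3.06 ± 0.42 SE, limma adjusted p = 1.68e-05) and at E-L 36 (4.29 ± 0.42 SE, limma adjusted p = 7.25e-10), and fell under ABA1000 at E-L 36 (-2.35 ± 0.42 SE, limma adjusted p = 0.000701). Without NAA100 E-L 35 replicate 3 the log2 fold change of this gene at E-L 35 was 4.01 (limma adjusted p = 3.34e-12). VIT_202s0087g00930 rose under NAA100 at E-L 34 (1.54 ± 0.30 SE, limma adjusted p = 0.000285) and E-L 38 (1.73 ± 0.30 SE, limma adjusted p = 0.000111). At E-L 34, the 3 NCED genes were lower and both CCD4-like genes higher in NAA100 than in Control berries. The other calls were of genes annotated as ZEP, the enzyme that makes the epoxycarotenoids upstream of NCED. VIT_206s0009g01670 was at 1.25, 0.926 and 0.772 FPKM in NAA100 berries and 4.53, 6.22 and 5.74 FPKM in Control berries at E-L 36 (-1.71 ± 0.16 SE, limma adjusted p = 3.63e-10), and VIT_213s0156g00350 at 3.21, 3.17 and 3.55 FPKM in NAA100 berries and 1.29, 0.833 and 1.34 FPKM in Control berries (1.01 ± 0.11 SE, limma adjusted p = 1.07e-08). VIT_204s0044g00220, which fell under NAA100 at E-L 38, to 15.2, 15.1 and 17.1 FPKM in NAA100 berries against 94.2, 17.6 and 50.9 FPKM in Control berries (-1.43 ± 0.34 SE, limma adjusted p = 0.00261), is described as a ZEP in 1 annotation source and as a urate hydroxylase in another, so its place in the pathway is uncertain.

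Marker sums also differed between the treatments. At E-L 34, where the 3 NCED genes were lower under NAA100, the green tissue sum was 1010.0 ± 79.3 FPKM in NAA100 berries against 414 ± 66.4 FPKM in Control berries, without overlap, and VviMYBA1 was at 0.119, 0.110 and 0 FPKM in NAA100 berries and 3.26, 1.39 and 1.87 FPKM in Control berries. At E-L 35, where VviNCED3 was higher under both sprays, the green tissue sum was 459 ± 30.3 FPKM in ABA1000 berries, 695 ± 139 FPKM in NAA100 berries and 325 ± 68.6 FPKM in Control berries. At E-L 36, where VviNCED3 was lower under NAA100, it was 115 ± 24.9 FPKM in NAA100 berries and 177 ± 21.8 FPKM in Control berries. No member was called against Control at E-L 38. The green tissue sum was there 126 ± 9.18 FPKM in ABA1000 berries, 105 ± 15.3 FPKM in NAA100 berries and 71.8 ± 7.81 FPKM in Control berries. Both sprays lay above the Control at that stage without overlap. NAA100 E-L 35 replicate 3, which stood apart in VviNCED1, VviNCED2 and the hydroxylase of chromosome 3, had the lowest green tissue sum and the highest VviMYBA1 and seed sum of its group, whose seed sums were 111, 641 and 2388 FPKM. The seed sums of the other groups of that stage were 152, 2865 and 139 FPKM in ABA1000 berries and 104, 102 and 392 FPKM in Control berries. ABA1000 E-L 34 replicate 1, which stood apart in VviNCED3 and both hydroxylases, had no high seed sum, the 3 libraries being at 136, 145 and 1485 FPKM. The part of green tissue, colouring and seed in the results above was not tested, apart from the fits without the libraries of high seed sum.

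**Figure D4:**
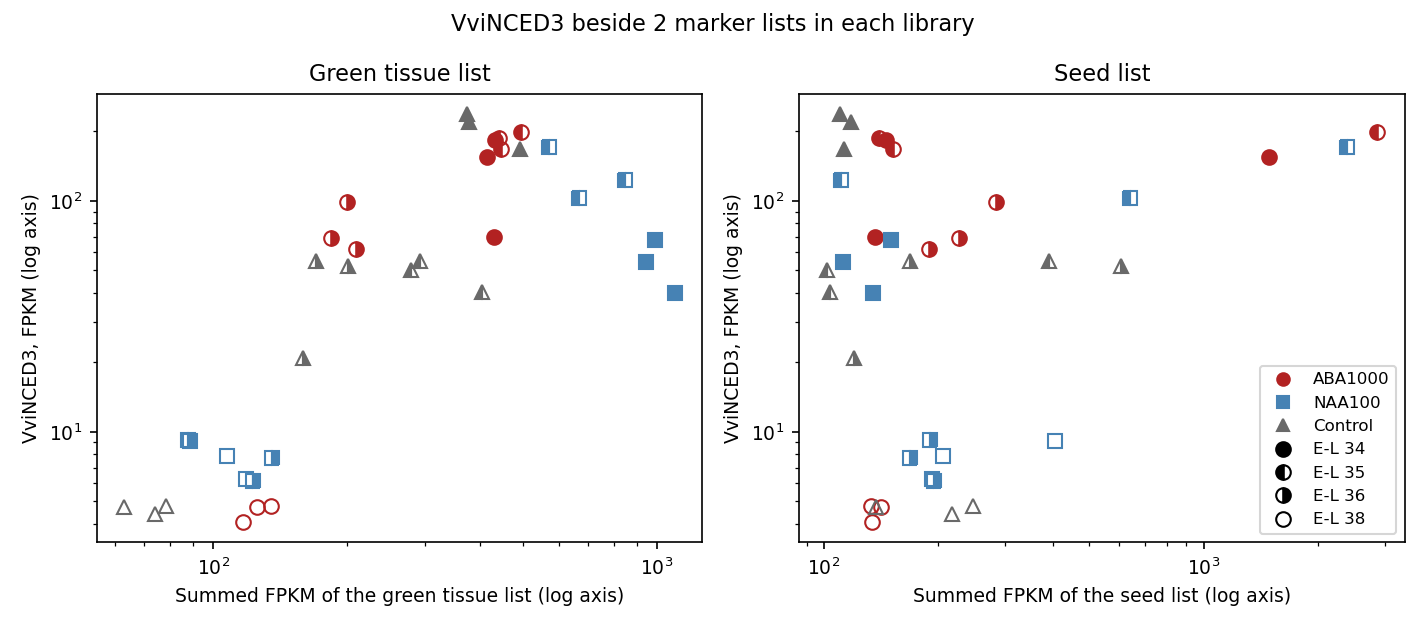
VviNCED3 (vertical log axis, FPKM) against the summed FPKM of the green tissue list (left) and the seed list (right, both log axes) in each of the 36 libraries. Colour and shape give the treatment and the filling gives the stage; NAA100 libraries at E-L 34 lie at the highest green tissue sums, from 943.0 to 1097 FPKM, and the 2 highest seed sums, 2388 and 2865 FPKM, are at E-L 35.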

How the data were processed

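RNA of deseeded berries was sequenced as paired reads and, per the study's methods, mapped with TopHat to the CRIBI grape genome; the annotation version is not given in the sources used here. The authors deposited 1 table of 25280 genes with values named FPKM (RPKM in the study's methods), scaled by gene length and library total. As these are not counts, the count test of the study was not run, and only its threshold was kept. Columns were matched to groups by name.

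Differences were tested with limma 3.58.1 in R 4.3.3 (lmFit, contrasts.fit, eBayes with a mean-variance trend) on log2(FPKM + 1), with 24 residual degrees of freedom, 27 contrasts and Benjamini-Hochberg adjustment within each contrast, after a test on simulated data. Replicates of a group came from separate plots. Each p-value rested on 1 estimate of the spread within groups per gene, pooled over all 12 groups and moderated across genes. Per the study's methods each treatment had 3 plots, sampled at 4 stages, so that the stages of a treatment shared plots. The fit took the 36 libraries as independent, and the p-values of stage steps and interactions do not allow for this sharing. Reads behind each value were recovered from the smallest steps of the FPKM (within 0.02 of a whole read). Alternatives were the pseudocount, the filter, 3 scalings, a fit of the compared libraries alone, leaving out each library and, chosen after seeing the data, leaving out libraries that stood apart, a block on the column number and comparing groups of different stage. Genes of similar course were the 3 of highest Pearson r per gene. The genes, lists and tests were chosen with earlier results of these data known. RefSeq symbols (assembly ASM3070453v1, not the build of the table) were used for names only.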

Additional observations from a re-analysis of the deposited data

Results flagged for a closer look

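The treatment effects that differed between neighbouring stages by an interaction test in limma are given here as values. The effect of ABA1000 on VviNCED3, as a log2 difference from Control, was -0.70 at E-L 34 and 1.92 at E-L 35, a change of 2.62 (limma adjusted p = 0.000689), which was not called when only the 12 compared libraries were fitted (limma adjusted p = 0.0379). The effect of NAA100 on VviNCED3 was -1.95, 1.42, -2.23 and 0.62 at E-L 34, 35, 36 and 38, with changes of 3.36, -3.65 and 2.85 (limma adjusted p of 1.75e-05, 3.7e-08 and 2.1e-06). The effect of ABA1000 on the ABA 8'-hydroxylase of chromosome 3 was 0.89 at E-L 34 and -1.16 at E-L 35, a change of -2.05 (limma adjusted p = 0.000604), not called in the fit of those libraries alone (limma adjusted p = 0.0762). The effect of NAA100 on it was -1.32 at E-L 35 and -0.16 at E-L 36, a change of 1.16 (limma adjusted p = 0.00317). This change was not called with a pseudocount of 0.1, without Control E-L 35 replicate 2 or without NAA100 E-L 35 replicate 1 (limma adjusted p of 0.03, 0.0149 and 0.0151). The levels of the Control that these effects refer to were 209 ± 36.5, 48.5 ± 7.47, 42.7 ± 18.95 and 4.64 ± 0.193 FPKM for VviNCED3 and 1.04 ± 0.415, 2.86 ± 0.944, 0.349 ± 0.0555 and 0.292 ± 0.177 FPKM for the hydroxylase of chromosome 3 at E-L 34, 35, 36 and 38.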

How the results depend on the processing

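No called difference changed direction under any setting. Of the 34 calls reported, all were kept with TPM, 33 without a filter on low values, 32 with median-of-ratios scaling and 32 with quantile normalization, 31 with a pseudocount of 0.1, and 24 when only the compared libraries were fitted; 23 of the 23 that could be tested were kept at a mean of at least 5 FPKM, where both VviNCED1 and the hydroxylase of chromosome 3 were filtered out. Leaving out each library in turn kept 24 of 34. The count of 2 calls for ABA1000 against Control was 1 with a pseudocount of 0.1 and 1 at a mean of at least 5 FPKM. It was also 1 when only the compared libraries were fitted. With single libraries left out it ranged from 1 to 3, being 1 without Control E-L 35 replicate 2. Without the 5 libraries of high seed sum, where NAA100 E-L 35 is replicate 1 alone, it was higher, as were the calls over all genes. In that fit the log2 fold changes at E-L 34 were 1.18 for VviNCED1 and 1.03 for the hydroxylase of chromosome 3. That of VviNCED2 at E-L 36 was 1.07. The log2 ratio of the NCED sum to the hydroxylase sum for NAA100 against Control at E-L 35 was 2.61, and 1.39 as a difference of mean log2(FPKM + 1). The effect of ABA1000 on VviNCED3 between E-L 34 and E-L 35 was not called when only the compared libraries were fitted (limma adjusted p = 0.0379), nor was that on the hydroxylase of chromosome 3 (limma adjusted p = 0.0762); the cause was not tested.

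Over all genes and the 4 stages, ABA1000 against Control gave 608 calls, and 177 when only the compared libraries were fitted and 375 at a mean of at least 5 FPKM. NAA100 against Control, NAA100 against ABA1000 and the stage steps gave 5195, 6663 and 13837 calls, and 3503, 4355 and 9185 at that mean, where 10553 genes were tested. Scaling moved the median of all genes by up to 0.27 on the log2 scale, in ABA1000 berries at E-L 38 against E-L 36, without changing the direction of a called member. The planned replicate block on the letters of the sample titles was not run, as the columns carry numbers. A replicate block on those numbers, chosen after seeing the data, kept 33 of 34 calls, losing the ABA1000 step of the hydroxylase of chromosome 3 at E-L 35 (limma adjusted p = 0.0126), and gave 590 calls over all genes for ABA1000 against Control. Libraries of the same number did not deviate together: in the 21 pairs of groups compared, the correlation of their deviations from the group means, over genes, ran from -0.29 to 0.37, with 18 of 63 above 0.1, and a library was nearest to its own number in 19 of 63 cases. Levels under 1 FPKM, as for the hydroxylase of chromosome 3, rest on few reads, and a difference there may be missed.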
